A study of Mus musculus with 31 samples.

Results

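The cytosolic ribosomal proteins were followed in single late 2-cell mouse embryos generated with control or SER (Sperm Energy Restriction and Recovery) sperm. The members are every gene whose symbol is Rpl or Rps followed by a number, together with Rpsa, Rplp0, Rplp1 and Rplp2. The S6 kinases (10 Rps6k genes), Rps19bp1 and 9 genes with -ps in their symbol, which marks a pseudogene, were left out. This gave 89 of the 20544 gene symbols in the table, namely 46 proteins of the large subunit, 31 of the small subunit and 12 paralogues or retrogenes, which are relatives or copies of a ribosomal protein gene. Of these 12, Rpl32l, Rpl37rt and Rps4l are annotated as processed pseudogenes.

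A cytosolic ribosome carries 1 copy of nearly every one of these proteins, and cells usually keep their mRNAs in a fixed proportion. Most of these mRNAs start with a run of pyrimidines, the 5′ terminal oligopyrimidine (TOP) tract, through which LARP1 and the mTORC1 pathway adjust their translation as a set. In the mouse, the egg brings a store of ribosomes and of mRNA, the store of mRNA is degraded after fertilization, and the embryo's own genome becomes strongly transcribed at the 2-cell stage.

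All embryos were wild type. The sperm were from C57BL/6J males of 12 to 14 weeks and the oocytes from superovulated CD1 females of 8 to 10 weeks. SER sperm were held in medium without glucose and pyruvate until they stopped moving, which took 15 to 45 min, and were then returned to complete medium, in which the control sperm had stayed throughout. Sperm and oocytes were together for 4 h, and 16 control- and 15 SER-generated embryos were collected at 32 h after insemination, 1 library per embryo. The study made its embryos in separate batches, which the labels do not give for an embryo, so no comparison here takes the batch into account. The labels also do not say which embryos shared parents, so p-values measure the spread between these embryos.

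Library totals ran from 532945 to 3088396 counts, and 10455 to 13220 genes had a count. Of the 15 cumulus cell markers, 3 had a median above 0, and their summed level was 3798 CPM (counts scaled to a library of 1000000) in control embryo 5 against at most 162 in the other embryos. It consisted mainly of Hsd3b1 (2071 CPM) and Cyp11a1 (1423 CPM). Of 12 sperm markers, 4 had a median above 0, and the summed level ran from 98.2 to 392 CPM, most of it Odf2, with a median of 169 CPM. Of 15 oocyte markers 13, and of 23 markers of 2-cell genome activation 8, had a count in every embryo. In bulk RNA of an embryo, less RNA per cell and fewer intact cells cannot be told apart.

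The first bases of a transcript are where the TOP tract lies. The 30-base windows below show, for members treated later, 10 bases before the RefSeq start and 20 bases from it on (GRCm38.p6, 5′ to 3′). Capitals mark each C that is followed by at least 4 pyrimidines, with its whole run. Rps6, Rps23 and Rpl37 moved closely with the other members over the embryos, and Rpl15, Rps27l, Rpl37rt and Rpl13a departed from them.
Rps6, chr4:86857348-86857377, minus strand: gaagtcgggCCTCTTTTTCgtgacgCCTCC
Rps23, chr13:90923112-90923141, plus strand: cggctgggcggggCTTCCCgcaatgccttg
Rpl37, chr15:5116603-5116632, plus strand: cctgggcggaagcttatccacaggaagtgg
Rpl15, chr14:18270967-18270996, minus strand: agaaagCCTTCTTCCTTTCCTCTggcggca
Rps27l, chr9:66946076-66946105, plus strand: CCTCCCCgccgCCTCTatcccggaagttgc
Rpl37rt, chr5:115110249-115110278, minus strand: caggccagagcccgcacccagcagtgcgtg
Rpl13a, chr7:45128726-45128755, minus strand: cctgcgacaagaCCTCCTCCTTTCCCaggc
Both kinds of member include starts with and without the tract.

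Over the 68 members with a start in the RefSeq table, the tract began exactly at the annotated start in 15 (22.1%), against 3.01% of all 27025 genes with a start. It began within 20 bases of the start in 55 members (80.9%), against 53.3% of all genes. Of the 9 departing members described below, 7 had a start in the table, 5 of them with a tract within 20 bases. The motif CCGGAAG, on either strand of the 300 bases around the start, was in 26 members (38.2%) and in 9.93% of all genes. The same windows held TATAAA in 8 members (11.8%) against 15.7% of all genes, and AAGATGGC in 6 (8.82%) against 3.19%. CCGGAAG is the core recognized by ETS-family factors, TATAAA is the TATA box and AAGATGGC is the core recognized by YY1. A match is a run of letters only, and the motifs were chosen after the expression values were known.

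The ribosomal protein mRNAs were a small part of each library and differed widely among embryos of the same group. In control embryos they took from 0.14% (embryo 4) to 3.67% (embryo 1) of all counts, with a median of 1.27%. In SER embryos they took from 0.10% (embryo 15) to 2.53% (embryo 5), with a median of 1.29%. The mean was 1.46% ± 0.96 (SD, n = 16) in control and 1.23% ± 0.73 (SD, n = 15) in SER embryos, so the means lay closer together than 1 SD of either group. High embryos were found in both groups, namely control embryos 1, 2 and 3 (2.53 to 3.67%) and SER embryos 5, 6 and 7 (2.18 to 2.53%), and so were very low ones.

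**Figure D1:**
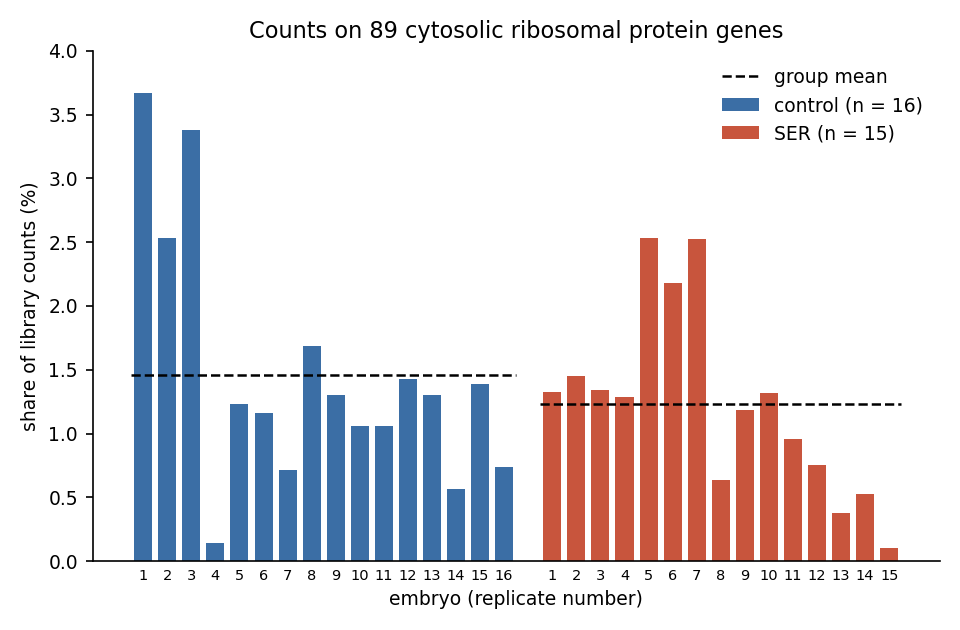
Share of each library's counts (%, y axis) on the 89 ribosomal protein genes, 1 bar per embryo with its replicate number, control in blue and SER in red, with the group means as dashed lines (1.46% and 1.23%). Control embryo 4 (0.14%) and SER embryo 15 (0.10%) lie far below the rest, and both groups hold high embryos.

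Both embryos at the low end also had few members with a count, 65 in control embryo 4 and 67 in SER embryo 15, against 84 to 88 in the other embryos. Their libraries were not the smallest, with 662768 and 2567720 counts. They held the highest summed levels of the oocyte markers, 20066 and 15709 CPM, although control embryo 3, which was rich in ribosomal protein mRNA, followed with 14663 CPM. Of 23 markers of 2-cell genome activation, 15 were at 0 counts in control embryo 4 and 7 in SER embryo 15, against at most 3 in the other embryos. Their summed level was 1815 CPM in control embryo 4, of which Obox5, a homeobox gene, made up 1676 CPM, and 888 CPM in SER embryo 15, of which it made up 568 CPM. Without Obox5 the sums were 139 and 320 CPM, against 806 to 4162 CPM in the other embryos. The part of these differences in the ribosomal protein level was not tested.

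The balance between the subunits was less variable than the total. The small-subunit genes had 0.60 ± 0.098 (SD, n = 16) counts for each count on a large-subunit gene in control embryos and 0.56 ± 0.094 (SD, n = 15) in SER embryos. The ratio was lowest in control embryo 4 (0.42) and SER embryo 15 (0.35) and highest in control embryo 3 (0.87), so that the groups overlapped.

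Levels of single members were compared per kb of transcript. The highest was Rpl41, a very short basic protein of the large subunit, at 2087 ± 1757 CPM per kb (SD, n = 31). It was followed by Rplp0, the base of the ribosomal stalk, at 995 ± 643, and Rpl8, a core large-subunit protein, at 963 ± 517. The lowest tested members were Rps15a (15.9 ± 24.2), Rpl3l (18.4 ± 12.6) and Rpl3 (21.7 ± 13.5). The value of Rps15a is set by its annotated transcript of 5130 nt, the longest among the members, whose median was 767.5 nt. Without division by length, Rplp0 (mean 1351 CPM) stood above Rpl41 (1136 CPM). The order of these levels is also open to the mapping, since among reads from the 5′ end only uniquely mapped ones were kept and many ribosomal protein genes have near-identical pseudogenes.

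Several paralogues were as abundant per kb as the genes they derive from, or more so. Rps27l, a paralogue of Rps27 known as a p53 target, was at 678 ± 890 CPM per kb (SD, n = 31) against 30.9 ± 27.1 for Rps27, and was higher in 31 of 31 embryos. Rpl36al, a relative of the X-linked Rpl36a, was at 681 ± 567 against 69.4 ± 60.8 and was higher in 29 of 31 embryos. Rpl7l1, a relative of Rpl7 with a role in ribosome assembly, was higher than Rpl7 in 26 embryos, and Rps4l was higher than the X-linked Rps4x in 24. All these pairs kept this order in most embryos of each group.

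Other pairs were close or ran the other way. Rpl39l, known from testis, was higher than Rpl39 in 20 of 31 embryos, and Rpl10l, the testis retrogene that stands in for the X-linked Rpl10, was higher than Rpl10 in 12. Rpl3l, the muscle paralogue of Rpl3, was higher than Rpl3 in 14. Rpl22l1 was at 10.4 ± 21.2 CPM per kb against 206 ± 127 for Rpl22 and was lower in 31 of 31 embryos, and Rpl37rt was lower than Rpl37 in 26. Rpl32l had 13 counts over all embryos, and Rps27rt had none in any embryo. Reads that fit both a gene and its copy equally were not assigned to either, at least among the 5′ reads, so these differences carry an uncertainty that the counts do not show.

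Over the 31 embryos the members rose and fell largely together. For each embryo the shared level was taken as the median log2(CPM + 1) of the 84 members that passed the filter on low counts. It spanned 6.19 on the log2 scale, with an SD of 1.38. It was 6.11 ± 1.42 (SD, n = 16) in control and 5.93 ± 1.39 (SD, n = 15) in SER embryos. A member's departure was measured as the variance left after the median of the other members was subtracted, as a percent of the member's own variance, and a slope gives the change of a gene per unit of that median. By arithmetic, 100% is left at a slope of 0.5, and less is left at steeper slopes.

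The median member had 21.3% of its variance left, and the median of the other 8487 tested genes was 268%. Under 50% was left in 64 of 84 members and in 6.57% of the other genes. The slope had a median of 1.00 over the members and 0.01 over the other genes. The small subunit (31 members, median 17.6% left), the large subunit (45 tested, 23.1%) and the paralogues and retrogenes (8 tested, 40.2%) all held members that followed closely. These figures describe genes in shared libraries, and no test was made. Without control embryo 4 and SER embryo 15, a choice made after seeing the data, the median member had 33.8% left, the other genes 196%, and again 64 members had under 50% left.

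**Figure D2:**
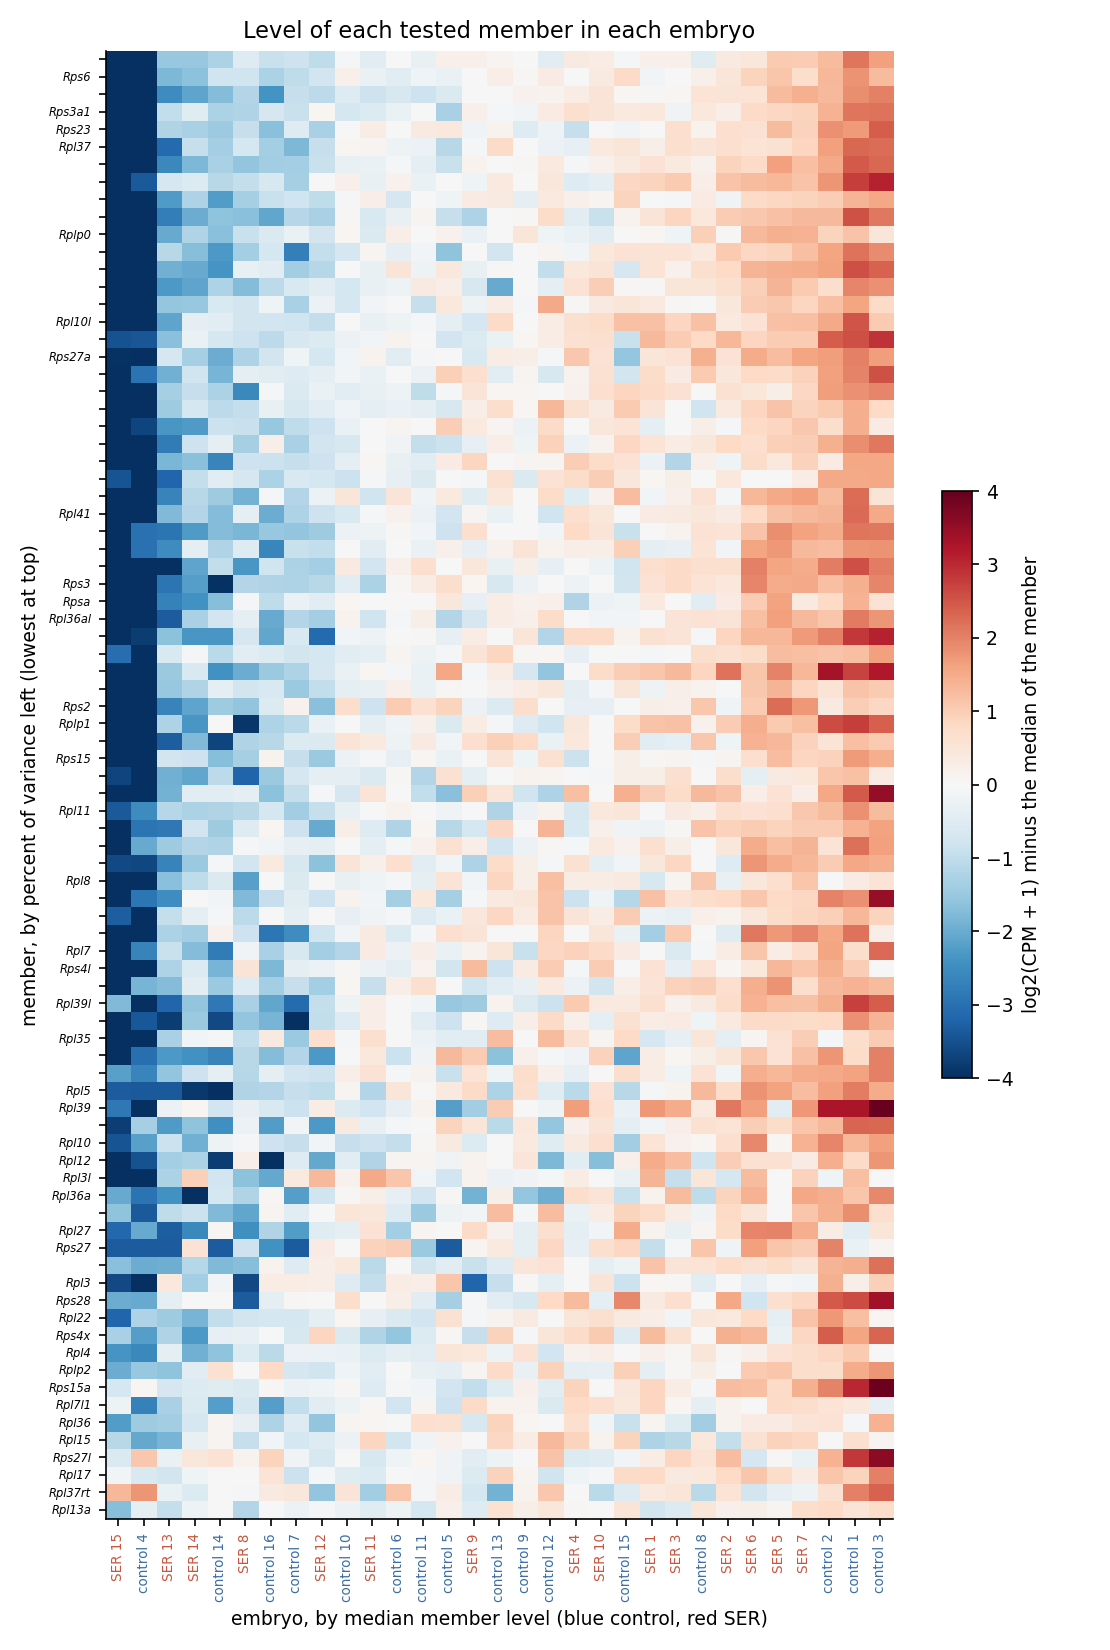
Levels of the 84 tested members (rows, ordered by the percent of variance left) in 31 embryos (columns, ordered by the shared level), as log2(CPM + 1) minus each member's median, blue low and red high, limited to ±4, with the symbols of some members. Most rows change together from left to right, and the rows at the bottom, such as Rpl13a, Rpl37rt, Rpl17 and Rps27l, change little or in other embryos.

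Among the closest followers were Rps6 with 5.22% of its variance left and Rps3a1 with 8.73%. They ranked 2 and 5 among all tested genes, and both had slopes of 1.03. Rps6, the small-subunit protein phosphorylated by S6 kinase, ran from 1.5 CPM (embryo 4) to 346 CPM (embryo 1) with a median of 107 in control embryos. In SER embryos it ran from 4.3 CPM (embryo 15) to 213 CPM (embryo 5) with a median of 98.5. Rps3a1, also of the small subunit, ran from 1.5 to 385 CPM in control and from 3.1 to 158 CPM in SER embryos, with medians of 79.97 and 98.5. Both genes were lowest in control embryo 4 and SER embryo 15 of their groups, and the groups overlapped.

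The functional groups of the ribosome followed to different degrees. The 4 genes of the decoding site and mRNA entry (Rps2, Rps3, Rps15 and Rps23) had a median of 18.8% left and slopes from 1.05 to 1.43. The 5 genes of the mRNA exit side had a median of 15.2%, with Rps28 (60.5%) as the one above 50%. The 2 partners of 5S rRNA, Rpl5 and Rpl11, which also bind Mdm2 when free of the ribosome, had 32.1% and 22.5% left. In the stalk that recruits translation factors, Rplp0, Rplp1 and Rpl12 were under 50% and Rplp2 was not. Of the 7 genes of the peptide exit tunnel and its mouth 4 were under 50% (median 33.6%), with slopes from 0.29 to 1.23, and Rpl17 and Rpl4 were among those that were not. Rps27a, made as a fusion to ubiquitin, had 13.6% left. Rplp0 was the member with the most counts of these groups, running from 72.4 to 2716 CPM in control embryos and from 44.0 to 3363 CPM in SER embryos.

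In 9 members at least 100% of the variance was left, and these were the genes that departed from the shared movement. They were Rpl13a (330%), Rpl37rt (314%), Rpl17 (280%), Rps27l (209%), Rpl15 (170%), Rpl36 (149%), Rpl7l1 (142%), Rps15a (102%) and Rplp2 (102%). Of these, 5 belong to the large subunit, 1 to the small subunit and 3 are paralogues or retrogenes. The 3 were out of 8 tested, compared with 5 of 45 for the large and 1 of 31 for the small subunit. Just inside this limit lay Rpl4, with 76.0%. The counting SD of these 9 ran from 0.097 (Rps27l) to 0.35 (Rpl37rt) on the log2 scale, against SDs from 0.88 (Rplp2) to 1.79 (Rpl37rt) after the shared level was subtracted.

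**Figure D3:**
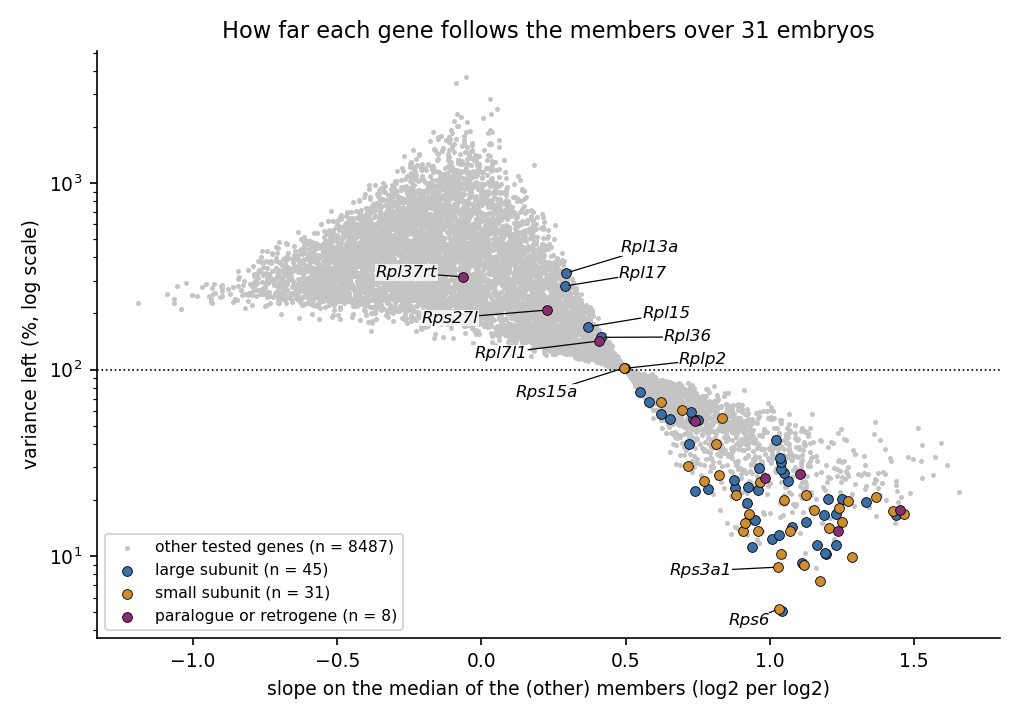
Variance left after the median of the members is subtracted (%, log scale, y axis) against the slope on that median (x axis) for 84 tested members, coloured by class, and 8487 other tested genes in grey. The dotted line marks 100%, reached at a slope of 0.5. Rps6 and Rps3a1 lie near the bottom (5.22% and 8.73%), the 9 labelled members above the line depart, and Rpl37rt is the one member with a slope below 0.

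Rpl13a, a large-subunit protein that can also leave the ribosome and repress translation of interferon-induced mRNAs, was nearly level. It ran from 98.9 to 284 CPM with a median of 187 in control embryos and from 49.5 to 264 CPM with a median of 141 in SER embryos. In control embryo 4, in which Rps6 was at 1.5 CPM, Rpl13a was at 122 CPM. Its slope was 0.29, and its SD over the embryos was 0.59 on the log2 scale, against a median SD of 1.51 over the members.

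Rpl17 and Rpl15, both of the large subunit, also followed the shared level weakly, with SDs of 0.67 and 0.85 on the log2 scale. Rpl17 ran from 39.4 to 299 CPM in control and from 43.5 to 158 CPM in SER embryos, with a slope of 0.29. It was at 46.8 CPM in control embryo 4 and 67.0 CPM in SER embryo 15. Rpl15 ran from 16.6 to 176 CPM in control and from 19.1 to 137 CPM in SER embryos, with a slope of 0.37. In the low embryos Rpl15 was at 16.6 and 32.3 CPM, where Rps6 was at 1.5 and 4.3.

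Rps27l followed the shared level weakly, with a slope of 0.23. It was at 2378 CPM in control embryo 3 and 1377 CPM in control embryo 1, against a control median of 245 CPM and a lowest control value of 168. In SER embryos it ran from 121 (embryo 6) to 463 CPM with a median of 161. Control embryo 4 still held 413 CPM and SER embryo 15 held 131 CPM. The SER embryos rich in ribosomal protein mRNA were not rich in Rps27l, with 200 CPM in embryo 5, 121 in embryo 6 and 161 in embryo 7.

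Rpl37rt, a retrogene copy of Rpl37, had a slope of -0.06. In the 2 low embryos it was high, with 52.8 CPM in control embryo 4 and 38.9 CPM in SER embryo 15, the highest SER value. The control median was 19.9 CPM and the SER median 12.2. Only control embryos 3 (79.97 CPM) and 1 (62.6 CPM) were higher. Rpl37 itself was one of the closest followers, with 9.14% of its variance left.

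Rps15a, a small-subunit protein, resembled Rps27l in the high embryos, with 659 CPM in control embryo 3 and 349 in control embryo 1 against a control median of 42.2. In the low embryos it was at 45.3 CPM (control embryo 4) and 25.7 CPM (SER embryo 15). Rplp2, an acidic protein of the stalk, ran from 77.0 to 756 CPM in control and from 55.3 to 478 CPM in SER embryos, with a slope of 0.50. Rpl7l1 fell to 22.6 CPM in control embryo 4 and stayed at 134 CPM in SER embryo 15. Rpl36 was low throughout, with at most 58.5 CPM.

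**Figure D4:**
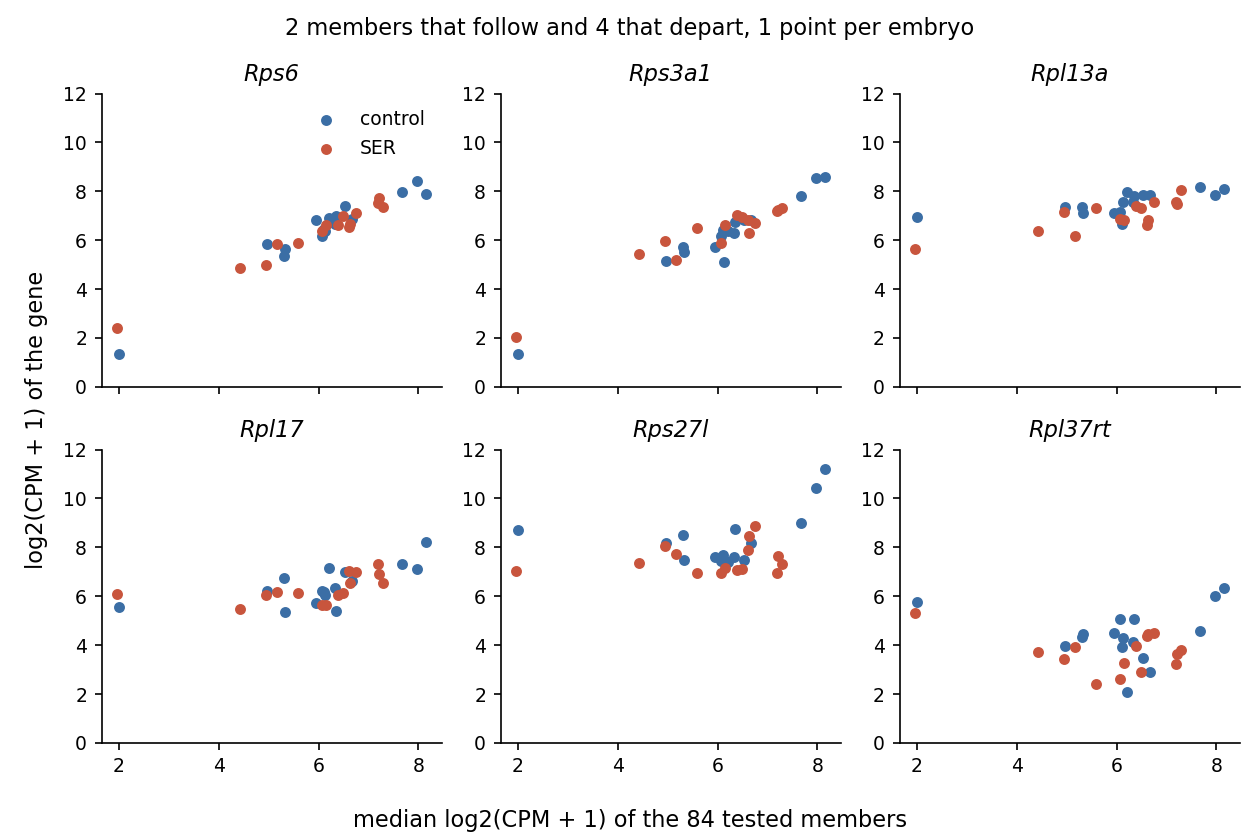
Level of 6 members against the median level of the 84 tested members, both as log2(CPM + 1), 1 point per embryo, control in blue and SER in red. Rps6 and Rps3a1 rise with the median along their whole range, while Rpl13a, Rpl17, Rps27l and Rpl37rt fall less or not at all in the 2 embryos at the left, control embryo 4 and SER embryo 15.

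The list of departing genes rests in part on the 2 low embryos. Without them 7 members had at least 100% of their variance left. Rpl13a (176%), Rpl15 (134%), Rpl36 (119%) and Rpl37rt (117%) were in both lists, which is 44.4% of the first list and 57.1% of the second. Rpl17 (90.7%), Rps27l (91.0%), Rpl7l1 (78.9%), Rplp2 (78.2%) and Rps15a (33.2%) were no longer in it, and Rpl3, Rpl3l and Rpl35 entered it. The slope of Rpl37rt became 0.40. With all embryos, the list also changed when libraries were thinned to the smallest total, where Rpl36 had 62.1% left and Rplp2 99.7%. With 10 in place of 1 added to the CPM before the log2, Rplp2 (57.6%), Rps15a (62.0%) and Rpl7l1 (98.4%) dropped out. Rps27 (156%), Rpl3l (136%) and Rpl3 (118%) then entered.

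The length of a transcript moved with the slope among genes that are no members. The 27 genes of up to 500 nt had a median slope of 0.67, the 438 genes over 500 and up to 1000 nt had 0.29, and the 3453 genes over 2000 and up to 4000 nt had -0.03. The 62 tested members of up to 1000 nt had a median slope of 1.03 and the 22 longer ones had 0.95. The part of length in the shared movement was not tested.

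Genes related to the ribosome followed to different degrees. Of the ribosomal proteins outside the rule, Fau, made as a fusion to a ubiquitin-like protein, had 21.4% left, and Rack1, a scaffold on the small subunit, had 205%. Of 80 tested ribosome biogenesis genes 23 had under 50% left, with a median slope of 0.53, and of 24 other TOP mRNAs 4 had, with a median slope of 0.40. Among 19 genes that control TOP mRNAs or phosphorylate S6 none had, and the median slope was 0.06. Markers of 2-cell genome activation had a median slope of 0.65, with 7 of 20 under 50%, and oocyte markers had -0.38, with 11 of 13 slopes below 0.

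Whether SER changed the ribosomal protein mRNAs was asked by comparing the groups with edgeR's quasi-likelihood test over 8571 genes. At an adjusted p under 0.1, 0 of the 84 tested members and 0% of all tested genes were called. At an unadjusted p under 0.05, 5 members (Rps27l, Rps28, Rps15a, Rpl37rt and Rpl13a) were lower and 0 were higher in SER embryos, where 3.52% of all tested genes were lower and 2.33% higher. DESeq2 called 49 genes (0.572%), of which 0 were members. The ranges of control and SER embryos overlapped for all 88 members with a count. Overlap was not counted over all genes, so this is not shown to be particular to the members.

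The estimates leaned lower in SER embryos. They were below 0 for 77 of 84 members and for 46.8% of all tested genes, and the median log2 fold change (SER minus control) was -0.34 for the members and 0.03 for all genes. The size of this lean depended on single embryos and its direction on the method. When any 1 embryo was left out, the median stayed below 0. It ran from -0.46 without SER embryo 7 to -0.15 without control embryo 1, and was -0.18 without control embryo 3. Without both control embryo 4 and SER embryo 15 it was -0.35. With limma voom and sample weights it was 0.36, with 75 of 84 estimates above 0 (50.1% of all genes). With a trend on the combined length of all annotated exons of a gene removed, the median was -0.16, with 53 members below 0 (49.9% of all genes). This length can exceed the transcript length used per kb, as for Rpl18 (4043 against 679 nt).

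**Figure D5:**
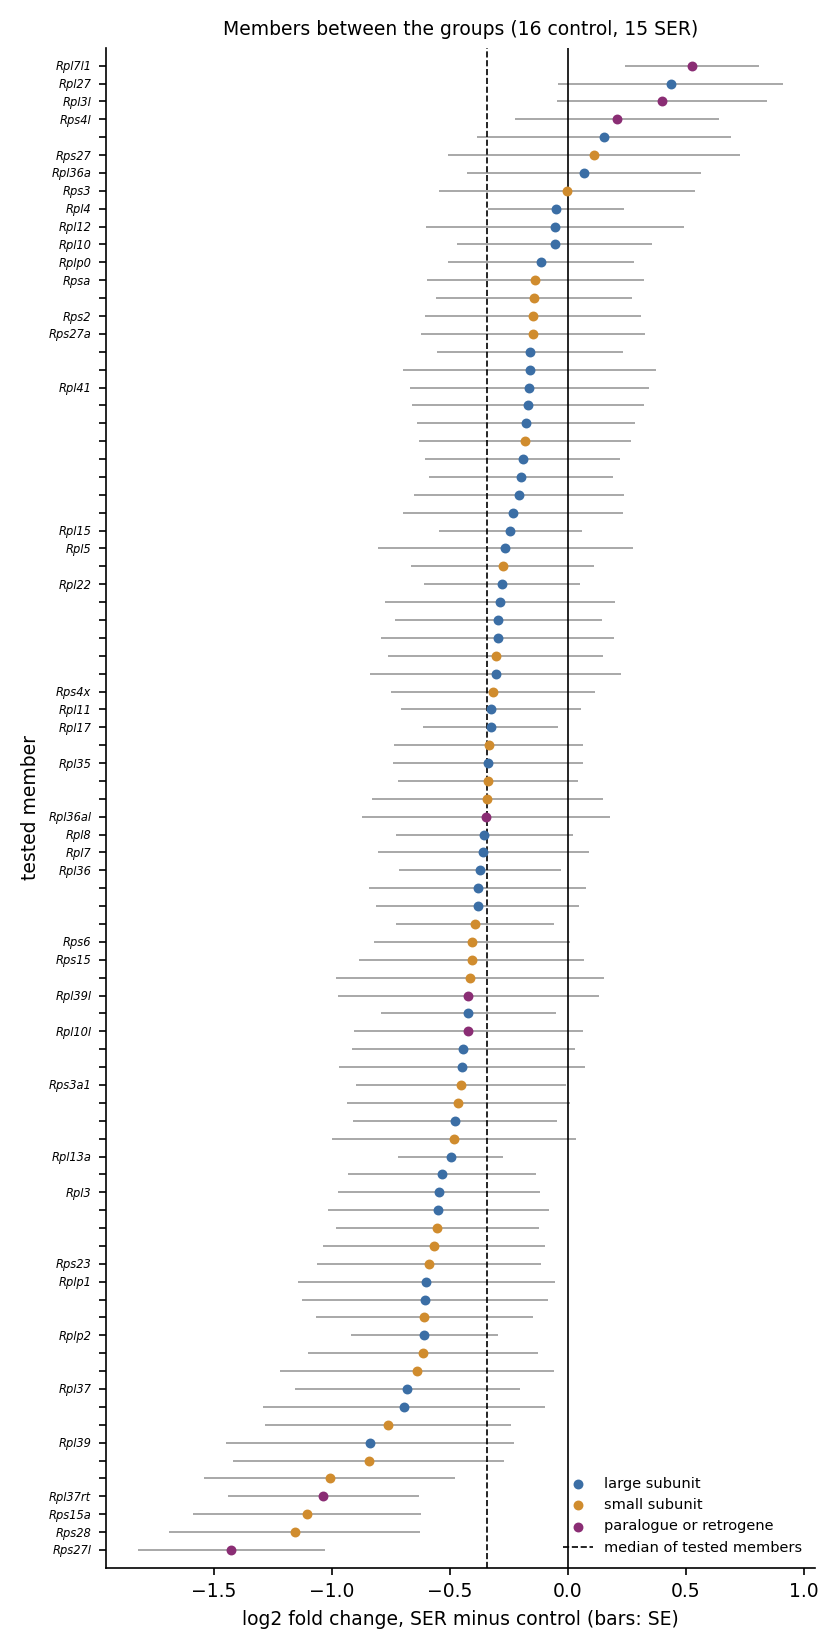
Log2 fold change between 15 SER and 16 control embryos (SER minus control, x axis) for the 84 tested members (y axis, with the symbols of some), points coloured by class and bars giving 1 SE. The median (dashed, -0.34) lies below 0, no member passed the adjusted threshold, and the values run from -1.42 (Rps27l) to 0.53 (Rpl7l1).

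The medians of both subunits and of each functional group were below 0 with edgeR and above 0 with voom, both with TMM scaling. Those of the exit tunnel (0.04) and Rps27a (0.05) were also above 0 in edgeR with the length trend removed. Scaled on the members, the exit tunnel genes had a median of 0.30, Rps27a 0.25, the large subunit 0.00 and the small subunit -0.11. Of 45 tested large-subunit genes 42 and of 31 small-subunit genes 30 had estimates below 0, with medians of -0.31 and -0.41 (0.37 and 0.33 with voom). The 4 stalk genes ranged from -0.61 (Rplp2) to -0.05 and the 5 genes at the mRNA exit from -1.16 (Rps28) to -0.14. Rps6 had a log2 fold change of -0.40 (SE 0.41), Rpl5 of -0.26 (SE 0.54), Rpl11 of -0.33 (SE 0.38) and Rplp0 of -0.11 (SE 0.39), none of which passed the test. The 7 tested paralogues named for a parent gene had 4 estimates below 0 and 3 above.

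The lowest estimates belonged to Rps27l, Rps28, Rps15a and Rpl37rt. Rps27l was at 470 ± 589 CPM in control and 198 ± 98.6 CPM in SER embryos (SD, n = 16 and 15), with 12 of 15 SER embryos below the control median. Its log2 fold change was -1.42 (SE 0.40, edgeR p = 0.00092, adjusted p = 0.39), and it was between -1.56 and -0.89 (without control embryo 3) when any 1 embryo was left out. DESeq2 gave -0.86 (adjusted p = 0.30) and voom -0.19 (adjusted p = 0.65), and with the replicate number as a block edgeR gave -0.80 (adjusted p = 1.00). Rpl37rt was at 26.8 ± 21.2 and 14.0 ± 8.8 CPM, also with 12 of 15 SER embryos below the control median, and its log2 fold change was -1.03 (SE 0.40, edgeR adjusted p = 0.72). For Rps15a (-1.10, SE 0.48) and Rps28 (-1.16, SE 0.53), 7 and 8 of 15 SER embryos lay below the control median, and control embryos 1, 2 and 3 held 169 to 659 CPM of Rps15a and 54.7 to 103 CPM of Rps28, against control medians of 42.2 and 9.3. Without control embryo 3 the log2 fold change was -0.40 for Rps15a and -0.69 for Rps28. DESeq2 gave -0.35 for Rps15a and -1.18 for Rps28, and voom 0.35 and -0.06. Rpl13a, which was lower in 12 of 15 SER embryos than the control median, had a log2 fold change of -0.49 (SE 0.22, edgeR p = 0.032, adjusted p = 0.80).

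The highest estimates belonged to Rpl7l1, Rpl27, Rpl3l and Rps4l. Rpl7l1 was at 122 ± 64.1 CPM in control and 181 ± 73.5 CPM in SER embryos, with 11 of 15 SER embryos above the control median. Its log2 fold change was 0.53 (SE 0.28, edgeR p = 0.071, adjusted p = 0.86). Rpl27 (0.44, SE 0.48), Rpl3l (0.40, SE 0.45) and Rps4l (0.21, SE 0.43) lay within 1 SE of 0.

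A second test asked which members differed between the groups beyond the shared level, with each library scaled on its members in place of all genes. This scaling moved the median of all genes from 0.03 to 0.48 and set that of the members near 0 (-0.05). With it, 0 of 84 members and 0% of all genes were called. At an unadjusted p under 0.05, Rpl7l1 was higher, with 5.08% of all genes higher and 0.198% lower. Rpl7l1 had a log2 fold change of 1.63 (SE 0.53, edgeR p = 0.0042, adjusted p = 0.78). It had 0.44 without SER embryo 15, 0.69 without both low embryos and 0.78 with the replicate number as a block. Rps27l had -0.96 (SE 0.70, edgeR adjusted p = 0.78).

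The calls with this scaling turned on the 2 low embryos. Without control embryo 4, 4362 genes (51.3%) were called, among them 3 members, all higher, namely Rpl37rt (1.92), Rpl7l1 (1.90) and Rpl17 (1.16). Without SER embryo 15 no member was called, and 5 members were lower at an unadjusted p under 0.05 (14.4% of all genes), namely Rps27l, Rps15a, Rpl37rt, Rpl13a and Rplp2. Rpl37rt, which was higher without control embryo 4, was at -2.49 without SER embryo 15. Rps27l was at 0.48 without control embryo 4 and at -1.92 without SER embryo 15. Without both embryos 0 members were called. When the shared level was instead entered as a covariate, a choice made after seeing the data, 8 genes (0.0933%) were called and none was a member, with 4 members lower (Rps27l, Rpl37rt, Rpl13a and Rplp2; 5.24% of all genes) and 2 higher (Rpl7l1 and Rpl41; 5.1%) at an unadjusted p under 0.05. In that fit Rps27l was at -1.16 (SE 0.35) and Rpl7l1 at 0.72 (SE 0.22), both with an edgeR adjusted p of 0.22.

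The related lists held no called gene in this comparison either. Of 80 ribosome biogenesis genes, 57 had estimates above 0 (median 0.18), as had 4561 of all 8571 tested genes. At an unadjusted p under 0.05, 3 of the 80 were higher and none lower, against 2.33% and 3.52% of all tested genes. The smallest p-values of the 80 belonged to Ddx10, an RNA helicase of the nucleolus (0.94, SE 0.36, edgeR adjusted p = 0.71), and Nol6, a protein of the small-subunit processome (1.09, SE 0.44, edgeR adjusted p = 0.72). Of 24 other TOP mRNAs, 19 had estimates below 0, against 46.8% of all tested genes. Their median was -0.28, but 0.27 with voom and 0.07 scaled on the members. At an unadjusted p under 0.05, 3 of the 24 were lower, against 3.52% of all tested genes. The smallest p-values of the 24 belonged to Btf3 of the nascent-chain complex (-0.69, SE 0.27) and Rack1 (-0.87, SE 0.35). Of 19 TOP and S6 control genes, none had an unadjusted p under 0.05, against 5.86% of all tested genes. The smallest p-values of the 19 belonged to Larp1 (0.73, SE 0.42) and Rps6ka1 (0.37, SE 0.28). Fau (-0.25, SE 0.37) lay near the median of the members.

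The marker lists gave no call by edgeR. The smallest p-values among 13 oocyte markers belonged to Bcl2l10 (-1.09, SE 0.36, edgeR adjusted p = 0.46) and Oosp2 (-1.06, SE 0.55). Of the 13, 10 had estimates below 0, against 46.8% of all tested genes (median -0.20, and 0.64 with libraries scaled on the members). Among 20 markers of 2-cell genome activation the smallest p-values belonged to Obox5 (-1.15, SE 0.36, edgeR adjusted p = 0.43) and Tcstv1 (-0.75, SE 0.42). Of the 20, 14 had estimates above 0 (median 0.12), as had 4561 of all 8571 tested genes. Obox5 was the 1 tested gene of this list with a slope below 0 on the shared level (-0.16), so its estimate does not stand for the list. Of the sperm markers 2 were tested, Ldhc (-0.79, SE 0.58) and Odf2 (0.09, SE 0.20), and of the cumulus markers none passed the filter.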

How the data were processed

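Single-embryo Smart-seq3 libraries were sequenced from 31 embryos. The authors aligned reads carrying a molecular identifier and internal reads with STAR, removed duplicates and used featureCounts for the gene counts. The labels give mm10 as the build. The deposited table holds these raw counts, whole numbers without normalization. Their tool versions, strand setting and annotation are not given in the sources used here, and their ComBat-seq batch correction was not repeated because the labels name no batch for an embryo. Internal reads carry no molecular identifier.

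CPM used each library's total. The groups were compared with edgeR 4.0.16 (R 4.3.3; glmQLFit and glmQLFTest, TMM, no covariates) on the genes kept by filterByExpr (minimum count 10), with Benjamini-Hochberg adjustment over all 8571 tested genes and a threshold of 0.1. SE is the size of the log2 fold change over the square root of F. A second fit took each library's scale from the median ratio of its tested members. Transcript lengths are from GENCODE vM21 (GRCm38), which matched 88 of 89 members, and starts from RefSeq. Rpl26, Rpl22l1, Rpl32l, Rps23rg1 and Rps27rt did not pass the filter. The alternatives were limma voom (limma 3.58.1), DESeq2 1.42.0 and other filters, scalings, covariates and embryos. Scripts were tested on simulated data. The table has no row for 13 mitochondrially encoded genes.

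The members, lists and tests were chosen with earlier results of these data known. Members were named by rule: the 4 highest and lowest fold changes, the 4 largest and smallest departures, the 3 highest and lowest levels per kb, and all genes of the stalk, the 5S particle, Rps6, Rps27a and the paralogues; of other lists, the 2 genes with the smallest p. Some genes that this rule names are not reported here.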

Additional observations from a re-analysis of the deposited data

How the results depend on the processing

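With TMM scaling, edgeR called no member under the main or a stricter filter, with thinned counts, a covariate or a left-out embryo. It also called none with DESeq2 size factors. DESeq2 was run on all embryos with the main filter. It called no member with its own size factors or with scaling on the members. limma voom with sample weights called 1 member, Rpl7l1 (0.81), among 858 genes, and the fit without a filter called 1, Rps27l (-1.35, adjusted p = 0.064), among 504 of 17803 genes. Under voom the members' median turned to 0.36. At an unadjusted p under 0.05, 8 members were higher and 1 lower, where 11.1% of all tested genes were higher and 11.7% lower. Rps15a (0.35), Rplp0 (0.088), Rplp2 (0.16), Rps6 (0.31), Rpl5 (0.19) and Rpl11 (0.37) turned above 0. The cause was not tested. With edgeR, the lower count was 3 with detected genes as a covariate (2.86% of all tested genes) and with the length trend removed (3.3%). In the fit with the length trend removed Rplp0 was 0.023. The lower count ran from 2 to 7 when 1 embryo was left out. The higher count was 1 after thinning (2.07% of all tested genes) and 2 with the shared level as a covariate (5.1%). It was 0 to 1 when 1 embryo was left out. Shares over all genes were not counted for these fits with a left-out embryo. Leaving out 1 embryo moved Rplp0 between -0.30 and 0.023 and Rpl5 between -0.48 and 0.016. With libraries scaled on the members, voom called 4 members (Rplp0, Rps2, Rpl10a and Rps29), 3 lower and 1 higher, among 1492 of 8571 genes (17.4%). With edgeR and this scaling, leaving out 1 embryo gave 0 to 3 called members. The 3 were among 4362 genes (51.3%) called without control embryo 4. Of the related and marker lists together, DESeq2 called 1 gene, voom 21 and the fit without a filter 8. These fits called 0.572%, 10% and 2.83% of all tested genes. The larger lists held 80, 24, 20, 19 and 13 tested genes with the filter, some shared between lists.

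Embryos of equal number were not shown to be pairs: of 15 pairs, 8 correlated above 0.1 (-0.366 to 0.494), and 6 of 30 embryos correlated best with their own number. With the replicate block 0 members were called, and Rpl27 was -0.12. At an unadjusted p under 0.05, 1 member was lower (2.04% of all tested genes), as with the length trend also removed (1.66%). Without control embryo 4 and SER embryo 15, the median variance left was 33.8% in place of 21.3%. A total without mitochondrially encoded genes was not run. Depth limits members such as Rps27 and Rps28, with 455 and 737 counts over all embryos.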

Other observations

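Some genes outside the ribosome followed the ribosomal protein mRNAs as closely as most members did. They were picked after their values were seen, from the tested genes with the least variance left. Gon7, a subunit of the KEOPS tRNA modification complex, had 8.60% of its variance left and a slope of 1.16. Elp6, a subunit of the Elongator complex, had 10.4% left, Imp3, a protein of the small-subunit processome, had 11.8%, and Tomm20, a receptor of mitochondrial protein import, had 13.3%.

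Other genes ran against the shared level, also picked after their values were seen. Among the lowest slopes were those of Rhot2, a GTPase of the outer mitochondrial membrane, with -1.09, F8a with -1.07 and Wfs1, a protein of the endoplasmic reticulum, with -1.06.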
